A study of Danio rerio with 8 samples.

Results

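The genes described here lie on the long arm of zebrafish chromosome 4. They were taken as the rows of the gene table on chromosome 4 of GRCz11 with a start at 28000000 or beyond. Of 1818 such rows, 559 had at least 0.5 FPKM (fragments per kilobase of gene length, scaled to a size per library) in at least 4 of 8 libraries and were tested, among 21012 genes tested in all. The members were thus chosen by position and selected on their measured FPKM, whichever group it came from, and 1259 rows of the arm stayed under this limit, 584 of them with no read in any library. By name and description, 269 of the tested genes coded for zinc finger proteins, 17 for NLR proteins, 15 resembled mobile elements, 3 belonged to the tripartite motif and B30.2 family, 3 were small RNA genes and 47 had another description. The remaining 205 had no description.

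The long arm of this chromosome is known as a largely heterochromatic, late-replicating and repeat-rich part of the zebrafish genome, with few of the conserved single-copy genes that fill other chromosomes. It carries large tandem arrays of C2H2 zinc finger genes, of NLR genes and of small nuclear RNA and ribosomal RNA genes. C2H2 zinc finger proteins bind DNA through short repeated finger domains and many of them repress transcription, and NLR proteins are cytosolic sensors of innate immunity built around a NACHT nucleotide-binding domain.

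RNA was from the eyes of embryos at 36 hpf (hours post fertilization), about 40 pooled eyes per library. There were 4 libraries labelled *flrt2*-KO, from a *flrt2*-/- line made by CRISPR/Cas9 with a 20 bp deletion and bred in the AB background, and 4 WT libraries of the AB strain. No label names a treatment. *flrt2*-KO titles start with CH1359 and end in 12_16, 1_19, 1_8_ysy and 2_17, WT titles start with AB and end in 12_16, 1_19, 1_8 and 1_8_ysy, and values below keep this order. Sample labels name retina where the methods name eyes. Because 1 mutant line was set against 1 WT strain, the *flrt2* genotype and any other difference between the lines cannot be told apart.

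*flrt2*, the targeted gene on chromosome 20, was at 2.897, 3.99, 3.804 and 2.795 FPKM in the libraries labelled *flrt2*-KO, against 2.48, 2.33, 2.25 and 2.55 FPKM in the WT libraries. The difference of the means, 0.968 FPKM, had a two-sided exact permutation p of 0.0286 as deposited and of 0.0857 with equal column sums, and in the limma fit used for all other genes *flrt2* did not pass (log2 fold change 0.40, adjusted p = 0.110). The targeted transcript was thus not measured as lower under the *flrt2*-KO label, and directions below rest on the labels. The libraries held 13423932 to 14835885 reads, recovered from the FPKM values. All 11 retinal progenitor and retina markers were tested, with 1 higher and 2 lower at an adjusted p under 0.05 and sums of 386 to 486 FPKM in *flrt2*-KO libraries and 401 to 549 FPKM in WT libraries. Of 7 lens markers, 3 were lower and 0 higher, with sums of 1711 to 2802 FPKM in *flrt2*-KO libraries and 1417 to 2892 FPKM in WT libraries. The 4 blood markers found summed to 367 to 921 FPKM in *flrt2*-KO libraries and 1002 to 1834 FPKM in WT libraries, with 3 tested and 3 lower, and 4 yolk and liver markers summed to 4.64 to 9.29 FPKM in *flrt2*-KO libraries and 15.9 to 27.2 FPKM in WT libraries, with 2 tested and 2 lower. The 4 muscle markers summed to 1.78 to 5.39 FPKM in *flrt2*-KO libraries and 1.90 to 14.1 FPKM in WT libraries. Of these, 1 was tested and did not pass, and *mylpfa* was at 0. The 4 pigment epithelium markers found were tested, with 0 higher and 0 lower. Their sums were 324 to 397 FPKM in *flrt2*-KO libraries and 278 to 403 FPKM in WT libraries. In bulk RNA, fewer cells of a type and less RNA per cell cannot be told apart, and the part of these cell types in the results below was not tested.

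Genes of the long arm changed in both directions. Of 559 tested, 155 (27.7%) passed an adjusted p under 0.05 with more than a 2-fold change on the log2(FPKM + 0.5) scale, 69 of them higher and 86 lower in *flrt2*-KO libraries, where 6.94% of all genes tested were called. By direction, the background was 3.59% higher and 3.35% lower. The rest of chromosome 4 had 17 of 463 genes called (3.67%), 6 higher and 11 lower, and the other chromosomes had 702 of 16854 (4.17%). Rows of alternate and unplaced contigs had 584 of 3136 called (18.6%), so that a high share was not found on the arm alone. Without the fold limit, 87 long arm genes were higher and 143 lower, where 15.6% of all genes passed, 8.28% higher and 7.37% lower. With 1 FPKM in place of 0.5 added before the log, the calls were 43 higher and 41 lower, and with 0.1 FPKM 77 higher and 120 lower.

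The long arm genes were expressed at low levels. Their median level over 8 libraries was 1.19 FPKM, against 5.18 FPKM on the rest of chromosome 4, and 265 reads over the 8 libraries stood behind the median gene (20 to 38559 reads). Among genes with a mean of 0.5 to 2 FPKM, 125 of 395 long arm genes were called (31.6%), against 8 of 128 on the rest of chromosome 4 (6.25%) and 6.4% of 4547 genes on other chromosomes. At this level the within-group SD on the log2 scale had medians of 0.284 in *flrt2*-KO and 0.294 in WT libraries on the arm, and of 0.288 in *flrt2*-KO and 0.281 in WT libraries on the rest of the chromosome. The limit of 0.5 FPKM was met in libraries of 1 group only by 101 long arm genes (18.1%), 48 in *flrt2*-KO and 53 in WT libraries, and these genes had to differ. Of the 386 that met it in at least 2 libraries of each group, 39 were called (10.1%), 12 higher and 27 lower, against 12 of 445 on the rest of chromosome 4 (2.7%), 2.85% on other chromosomes and 13.6% on contig rows, a share above that of the arm.

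**Figure D1:**
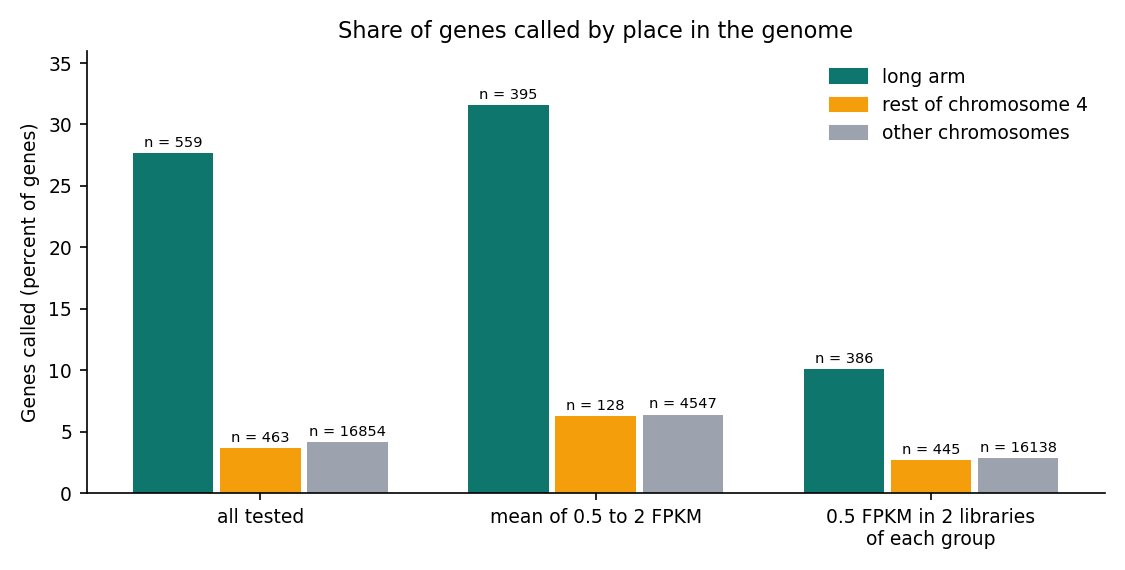
Percent of genes called (vertical axis) among long arm genes, the rest of chromosome 4 and the other chromosomes, for all genes tested, for those with a mean of 0.5 to 2 FPKM, and for those with at least 0.5 FPKM in 2 or more libraries of each group. The long arm stood at 27.7%, 31.6% and 10.1% in the 3 sets, and both other places were under 7% in each.

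The 4 *flrt2*-KO and 4 WT values did not overlap for 240 long arm genes (42.9%), where 21.1% of all genes tested did not overlap. This was the case for 74 genes of the rest of chromosome 4 (16%). Genes that met the 0.5 FPKM limit in libraries of 1 group only could not overlap. They made up 18.1% of the long arm genes, 0.432% of the rest of chromosome 4 and 2.41% of all genes tested, so the filter set part of this contrast. The median log2 fold change of the long arm genes was -0.19, and its median size without regard to sign was 0.56, against -0.0027 and 0.20 on the rest of the chromosome.

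The calls are described here by position along the arm, in stretches with limits at whole megabases that were set after the values were seen and so are given without a test. Between 33 and 58 Mb, 62 genes fell and 11 rose among 240 tested, and these 62 were 72.1% of all long arm genes that fell. Between 60 and 63 Mb, 15 of 26 rose and 0 fell, and between 68 and 72 Mb, 23 of 31 rose and 0 fell. Both stretches together held 38 of the 69 genes that rose (55.1%). Between 63 and 67 Mb, 16 of 42 genes fell and 6 rose. The 0.5 FPKM limit was reached in *flrt2*-KO libraries only by 20 of the 31 genes between 68 and 72 Mb and 11 of the 26 between 60 and 63 Mb, and in WT libraries only by 40 of the 240 between 33 and 58 Mb, and these had to differ. With the limit met in 2 libraries of each group, a fit added after the values were seen, 1 of 6 genes rose between 68 and 72 Mb, 2 of 9 rose between 60 and 63 Mb, and 18 of 160 fell and 3 rose between 33 and 58 Mb. Between 63 and 67 Mb, 5 of 20 fell and 0 rose in that fit.

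The remaining stretches were smaller or nearly without calls. Between 29 and 31 Mb, 10 of 32 genes rose and 4 fell. Of these 32, 6 reached 0.5 FPKM in *flrt2*-KO libraries only and 1 in WT libraries only, and these had to differ. With the limit met in 2 libraries of each group, 3 of 22 genes rose and 3 fell. The 15 genes between 28 and 29 Mb, the 16 between 31 and 33 Mb and the 11 between 67 and 68 Mb held no call, with 0, 6 and 3 of them passing an adjusted p under 0.05 in the limma fit at a smaller change. From 72 Mb to the end of the arm, 5 of 124 genes were called (4.03%). Of 154 pairs of called genes that followed each other along the arm, 118 changed in the same direction (76.6%), as did 427 of 678 such pairs on other chromosomes (63%) and 12 of 16 on the rest of chromosome 4 (75%). Where no tested gene lay between the pair, these counts were 65 of 76 on the arm (85.5%), 3 of 4 on the rest of chromosome 4 and 152 of 157 on other chromosomes (96.8%). Starts of successive called genes were a median of 142266 bases apart on the arm. This was 934823 bases on the rest of chromosome 4 and 677756 on other chromosomes, so the first shares compare unlike spacing.

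**Figure D2:**
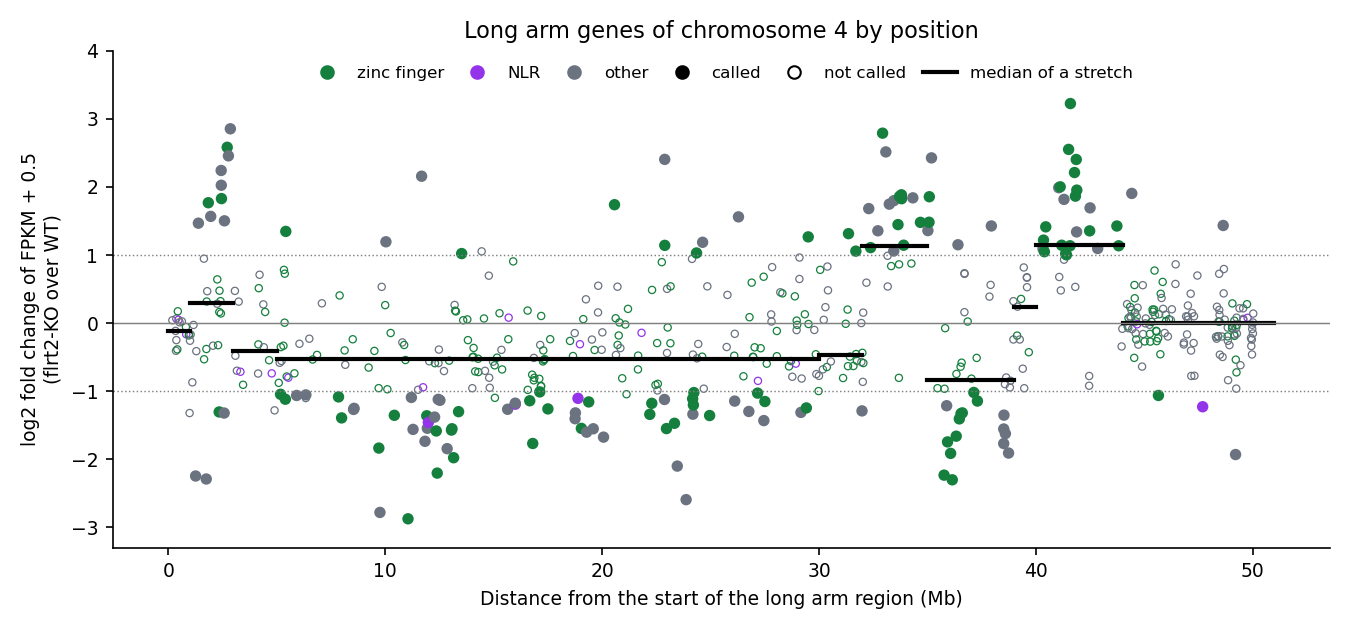
Each point is 1 of 559 long arm genes, with its distance from 28 Mb (horizontal axis, Mb) and its log2 fold change of FPKM + 0.5, *flrt2*-KO over WT (vertical axis). Filled points were called, colours give the family, black bars are the medians of the stretches and dotted lines mark a log2 fold change of 1 and -1. Filled points lie mostly below 0 at distances of 5 to 30 Mb, above 0 at 32 to 35 and 40 to 44 Mb, and are few beyond 44 Mb.

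The levels behind these stretches were seen in each library. Between 68 and 72 Mb, the median gene had 1.53, 1.26, 1.29 and 1.58 FPKM in the *flrt2*-KO libraries, against 0.132, 0.261, 0.305 and 0.2596 FPKM in the WT libraries. Between 60 and 63 Mb, it had 1.64, 1.28, 1.16 and 1.55 FPKM in *flrt2*-KO, against 0.104, 0.354, 0.413 and 0.317 FPKM in WT. Between 33 and 58 Mb, it had 0.826, 0.804, 0.644 and 0.716 FPKM in *flrt2*-KO, against 0.990, 1.36, 1.49 and 1.22 FPKM in WT. The groups did not overlap in these medians, a description only, since the stretches were drawn on the same values, and from 72 Mb on they did, with 1.97 to 2.25 FPKM in *flrt2*-KO and 1.96 to 2.34 FPKM in WT libraries. Between 68 and 72 Mb the filter alone fixed the separation. There, 20 of 31 genes reached 0.5 FPKM in *flrt2*-KO libraries only, so every WT median had to lie under 0.5 FPKM and no *flrt2*-KO median could. In the other 2 stretches the filter set part of it, through 11 of 26 genes between 60 and 63 Mb and 40 of 240 between 33 and 58 Mb.

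**Figure D3:**
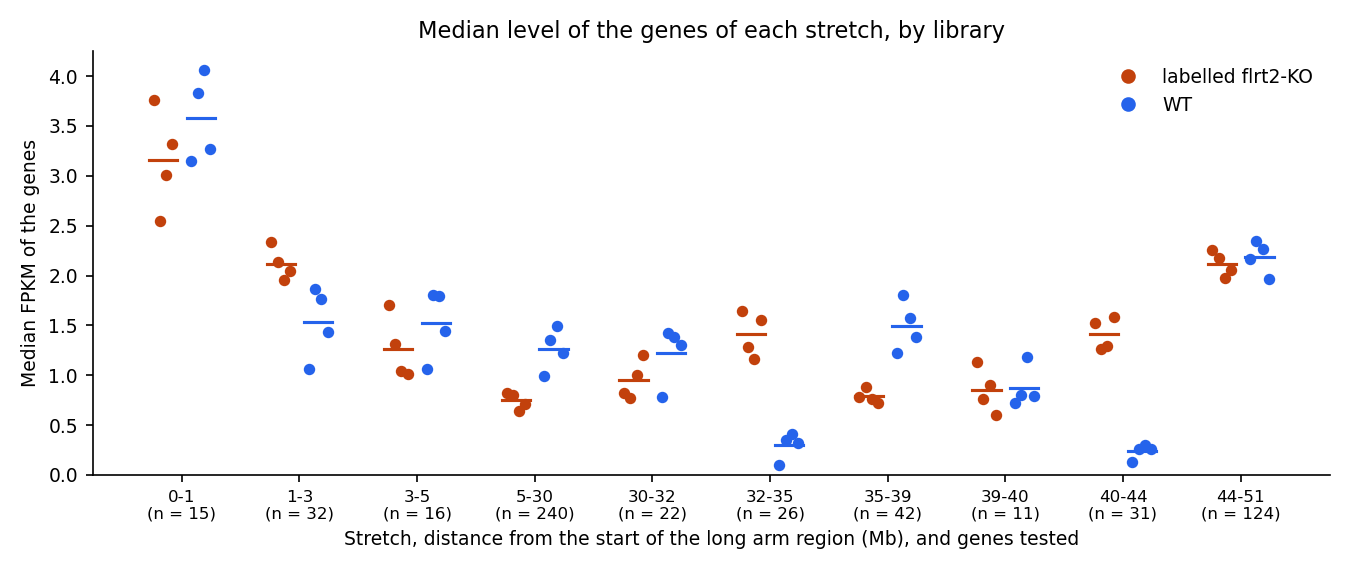
Median FPKM of the tested genes of each stretch (vertical axis) in the 4 *flrt2*-KO and the 4 WT libraries, 1 point per library with a bar at the mean of the points, for stretches in order of their distance from 28 Mb (horizontal axis, Mb, with the number of genes). *flrt2*-KO points lie above all WT points at 1 to 3, 32 to 35 and 40 to 44 Mb and below all of them at 5 to 30 and 35 to 39 Mb. At 40 to 44 Mb the filter fixed this, since 20 of 31 genes reached 0.5 FPKM in *flrt2*-KO libraries only.

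In the stretch from 68 to 72 Mb all 17 zinc finger genes tested rose. Of the 31 genes tested there, 20 reached 0.5 FPKM in *flrt2*-KO libraries only, so the filter fixed their direction. How many of these 20 were zinc finger genes is not given here. The 6 neighbouring tested genes from 69375564 to 69787943, all zinc finger genes, formed 1 of the 2 longest runs called in 1 direction. The largest difference of the whole arm was in this run, in *si:ch211-120c15.3* (ENSDARG00000101807, chromosome 4, 69593339 to 69615167), a C2H2 zinc finger gene. It had 4.5004, 4.76, 4.33 and 4.18 FPKM in the *flrt2*-KO libraries, against 0.0572, 0, 0.0597 and 0 FPKM in the WT libraries (log2 fold change 3.22, SE 0.15, adjusted p = 2.56e-06). It was near 0 in all WT libraries, with 4 reads in that group against 561 in *flrt2*-KO, and it passed the filter through *flrt2*-KO libraries only.

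Its neighbour *znf1025* (ENSDARG00000109697, chromosome 4, 69510337 to 69514024) showed the same picture, with 3.78, 4.79, 2.803 and 3.65 FPKM in *flrt2*-KO and 0.0669, 0.242, 0.314 and 0.268 FPKM in WT libraries (log2 fold change 2.55, SE 0.20, adjusted p = 4.21e-05). *znf1081* (ENSDARG00000104561, chromosome 4, 69782658 to 69787943) had 3.49, 2.79, 2.88 and 2.78 FPKM in *flrt2*-KO, against 0.1196, 0.371, 0.125 and 0.439 FPKM in WT (log2 fold change 2.21, SE 0.20, adjusted p = 7.21e-05). In both genes every *flrt2*-KO library was far above every WT library, and *znf1025* had been chosen among genes without overlap. Both passed the filter through *flrt2*-KO libraries only, so their groups could not overlap and their direction was fixed. The other 3 of the run, *si:dkey-246j6.1*, *si:dkey-246j6.3* and *znf1030*, were weaker, with log2 fold changes of 1.02, 1.003 and 1.14. These 3 also passed the filter through *flrt2*-KO libraries only. The first had 0.852, 0.959, 0.519 and 0.611 FPKM in *flrt2*-KO and 0.136, 0.328, 0 and 0 FPKM in WT libraries without overlap. Its change lay at the 2-fold limit, and its call was lost without WT library 1_8, WT library 1_8_ysy, *flrt2*-KO library 12_16 or *flrt2*-KO library 1_19 (log2 fold changes of 0.93, 0.93, 0.97 and 0.94). That of *si:dkey-246j6.3* was lost without WT library 1_8 or *flrt2*-KO library 1_8_ysy (0.89 and 0.85). With the title suffix as a block, both were under the fold limit (0.98 and 0.93, adjusted p = 0.0482 and 0.0820). The row of *znf1030* (ENSDARG00000109319, chromosome 4, 69577362 to 69651620) spans that of *si:ch211-120c15.3*, and reads shared by the rows cannot be assigned with certainty.

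*znf1117* (ENSDARG00000114716, chromosome 4, 69863019 to 69870527), a short way beyond this run, had 3.92, 3.65, 4.21 and 3.04 FPKM in *flrt2*-KO, against 0.218, 0.271, 0.547 and 0.175 FPKM in WT libraries (log2 fold change 2.403, SE 0.19, adjusted p = 4.49e-05). The groups were far apart, with the lowest *flrt2*-KO value at 3.04 and the highest WT value at 0.547 FPKM. This gene was chosen for its small adjusted p, so a wide separation followed from the choice. Of the WT libraries, only 1_8 reached 0.5 FPKM. Genes of other families rose here as well. An unannotated row starting at 70499535, which resembles the Pol polyprotein of a retrovirus-like transposon, had 3.92, 5.29, 5.03 and 3.42 FPKM in *flrt2*-KO and 0.806, 1.02, 1.05 and 1.16 FPKM in WT (log2 fold change 1.69, SE 0.17, adjusted p = 1.73e-04). *si:ch211-108c17.2*, with a THAP domain, which binds DNA, had 0.942, 1.26, 2.92 and 0.722 FPKM in *flrt2*-KO, against 0.132, 0.352, 0.473 and 0.472 FPKM in WT (log2 fold change 1.096, SE 0.31, adjusted p = 0.03799). This call was lost without any 1 of the 4 WT libraries and without *flrt2*-KO library 1_19 or 1_8_ysy, at adjusted p values of 0.0578 to 0.0953. At the distal end of the stretch, the oxidoreductase gene *pyroxd1* had 1.29 to 1.85 FPKM in *flrt2*-KO and 1.497 to 1.796 FPKM in WT libraries, with overlapping groups.

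In the stretch from 60 to 63 Mb, 8 of 14 zinc finger genes and 7 of 11 genes without a description rose. Of the 26 genes tested there, 11 reached 0.5 FPKM in *flrt2*-KO libraries only and so had to be higher. The zinc finger gene *si:dkey-82i20.2* (ENSDARG00000095126, chromosome 4, 60934218 to 60938397) had 4.26, 2.45, 2.44 and 4.41 FPKM in *flrt2*-KO, against 0.0746, 0.116, 0 and 0 FPKM in WT libraries (log2 fold change 2.79, SE 0.22, adjusted p = 4.57e-05). *BX000981.1* (ENSDARG00000092940, chromosome 4, 61083750 to 61085342), a row without a description, had 3.7004, 1.47, 2.87 and 1.88 FPKM in *flrt2*-KO and no read in any WT library. With 32 reads in *flrt2*-KO and 3 reads taken as the floor of the whole WT group, this is at least 11.6-fold higher, for counting error only. Neither gene had a WT value within reach of its *flrt2*-KO values, and both had been chosen among genes without overlap. Both also passed the filter through *flrt2*-KO libraries only, which fixed their direction.

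The other run of 6, from 62329407 to 63195998, crossed the end of this stretch, with 2 genes inside it and 4 counted among those that rose between 63 and 67 Mb. It held 3 zinc finger genes and 3 rows without annotation. In order, the unannotated row at 62329407, *znf1131*, the one at 63023304, *CR450780.2*, *zgc:173714* and the one at 63189200 had log2 fold changes of 1.84, 1.48, 1.36, 1.48, 1.86 and 2.43. The last of them (chromosome 4, 63189200 to 63195998) had 2.09, 3.17, 1.804 and 3.33 FPKM in *flrt2*-KO, against 0.0314, 0.1301, 0.0985 and 0 FPKM in WT libraries (log2 fold change 2.43, SE 0.21, adjusted p = 6.75e-05). *zgc:173714* had 1.78, 1.53, 1.01 and 1.58 FPKM in *flrt2*-KO, against 0.0803, 0, 0.0419 and 0.0401 FPKM in WT libraries. The groups did not overlap in any of the 6. The rows at 62329407 and 63189200, *znf1131* and *zgc:173714* passed the filter through *flrt2*-KO libraries only, so their groups could not overlap. Genes next to the stretch, such as *znf1109* at its proximal edge, had 1.77, 1.49, 1.25 and 4.83 FPKM in *flrt2*-KO and 1.79, 3.71, 4.61 and 2.37 FPKM in WT libraries, with overlapping groups.

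Near the proximal end of the arm, between 29 and 31 Mb, genes with large changes in opposite directions lay close together. An unannotated row (chromosome 4, 30863895 to 30883149), whose description is a reverse transcriptase of an X-element transposon, had 3.77, 4.45, 3.07 and 3.51 FPKM in *flrt2*-KO, against 0, 0.3095, 0.0339 and 0.013005 FPKM in WT libraries (log2 fold change 2.85, SE 0.21, adjusted p = 2.62e-05). The zinc finger gene *CU207245.1* (ENSDARG00000113016, chromosome 4, 30718997 to 30724331) had 4.102, 4.77, 2.76 and 2.93 FPKM in *flrt2*-KO, against 0.2001, 0.207, 0.209 and 0.10004 FPKM in WT (log2 fold change 2.58, SE 0.20, adjusted p = 3.77e-05). *si:dkey-11d20.1* (ENSDARG00000101775, chromosome 4, 30775376 to 30780676), without a description, had 10.1, 8.49, 5.45 and 9.53 FPKM in *flrt2*-KO and 0.286, 2.13, 1.55 and 0.973 FPKM in WT libraries (log2 fold change 2.46, SE 0.34, adjusted p = 0.00109). These 3 genes and an unannotated row at 30592059 followed each other with no other tested gene between them, and in each the groups were apart. The 3 genes had been chosen among those without overlap. The row at 30863895 and *CU207245.1* passed the filter through *flrt2*-KO libraries only.

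In the same stretch *si:dkey-191j3.1* (ENSDARG00000096063, chromosome 4, 29753347 to 29753895) had 0.171, 0.164, 0.177 and 0.347 FPKM in *flrt2*-KO, against 3.24, 3.51, 2.09 and 3.24 FPKM in WT libraries (log2 fold change -2.29, SE 0.19, adjusted p = 5.91e-05). The lincRNA *CR382372.1* (ENSDARG00000096684, chromosome 4, 29262191 to 29264239) had 0, 0.567, 1.07 and 2.41 FPKM in *flrt2*-KO and 4.55, 5.39, 5.86 and 6.02 FPKM in WT (log2 fold change -2.25, SE 0.43, adjusted p = 0.00629). The lincRNA varied widely among the *flrt2*-KO libraries, with 1 library at 0, while all were below every WT library. Both this lincRNA and *si:dkey-191j3.1* had been chosen among genes without overlap. *si:dkey-191j3.1* also passed the filter through WT libraries only, which fixed its direction. Close to *si:dkey-191j3.1*, the zinc finger gene *BX530097.1* did not pass the test and is described with its family below.

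**Figure D4:**
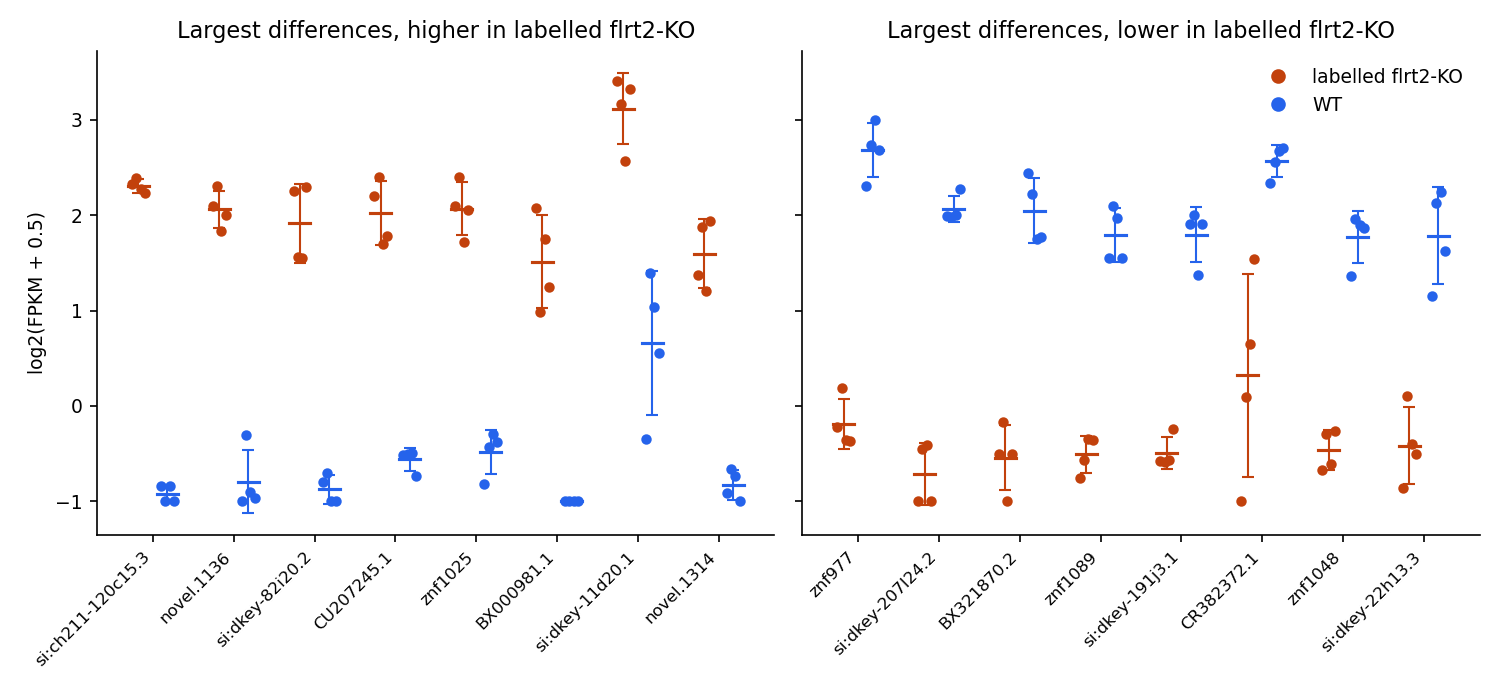
log2(FPKM + 0.5) (vertical axis) of the 8 long arm genes with the largest log2 fold change in each direction among called genes with groups that do not overlap and a mean of at least 1 FPKM in the higher group, left those higher and right those lower in libraries labelled *flrt2*-KO. Points are libraries, 4 per group, with the mean and the SD as bars. Rows without annotation carry the label the table gives them, the second from the left being the row at 30863895 and the last of the left panel the row at 63189200. A value of -1 is an FPKM of 0, and no *flrt2*-KO point lies among the WT points of its gene.

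Between 33 and 58 Mb the genes that fell were spread over the whole stretch, with 10, 18, 14, 13 and 7 of them in its successive windows of 5 Mb. Among them were 31 zinc finger genes and 24 genes without a description. *znf977* (ENSDARG00000087070, chromosome 4, 39055027 to 39069529) had the largest fall of the arm, with 0.358, 0.642, 0.278 and 0.273 FPKM in *flrt2*-KO, against 4.44, 6.18, 7.501 and 5.93 FPKM in WT libraries (log2 fold change -2.87, SE 0.20, adjusted p = 2.20e-05). *si:dkey-207l24.2* (ENSDARG00000101688, chromosome 4, 37760928 to 37766174), without a description, had 0, 0.231, 0.2503 and 0 FPKM in *flrt2*-KO, against 3.49, 3.45, 3.51 and 4.33 FPKM in WT (log2 fold change -2.78, SE 0.20, adjusted p = 2.46e-05). *BX321870.2* (ENSDARG00000100640, chromosome 4, 51876285 to 51876639) had 0.202, 0.387, 0 and 0.206 FPKM in *flrt2*-KO and 4.93, 4.16, 2.86 and 2.92 FPKM in WT (log2 fold change -2.59, SE 0.23, adjusted p = 7.96e-05). In all 3 genes each *flrt2*-KO library was far below each WT library, and all 3 had been chosen among genes without overlap. *si:dkey-207l24.2* and *BX321870.2* passed the filter through WT libraries only, so they had to be lower in *flrt2*-KO.

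The zinc finger genes *si:dkey-22h13.3* (ENSDARG00000096497, chromosome 4, 40402017 to 40407853) and *znf1062* (ENSDARG00000095149, chromosome 4, 41157276 to 41166287) lay within 1 Mb of each other. The first had 0.0501, 0.575, 0.259 and 0.203 FPKM in *flrt2*-KO, against 1.72, 3.88, 4.24 and 2.58 FPKM in WT libraries (log2 fold change -2.20, SE 0.29, adjusted p = 6.74e-04). *znf1062* had 0, 0.316, 0 and 0.126 FPKM in *flrt2*-KO and 1.87, 1.89, 1.79 and 1.87 FPKM in WT (log2 fold change -1.98, SE 0.20, adjusted p = 1.45e-04). The WT libraries were tightly grouped in *znf1062* and spread in *si:dkey-22h13.3*, and neither gene had overlapping groups. For *si:dkey-22h13.3* this was a condition of the choice. *znf1062* passed the filter through WT libraries only, so its groups could not overlap and it had to be lower in *flrt2*-KO. The stretch also held genes that rose, among them an unannotated row starting at 50889526, with 1.904, 3.096, 2.04 and 1.74 FPKM in *flrt2*-KO and no read in WT, at least 50.4-fold higher when the WT group is set at the floor of 3 reads.

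In the block between 63 and 67 Mb, 10 of 21 zinc finger genes fell and 2 rose. Of the 42 genes tested in this block, 9 reached 0.5 FPKM in WT libraries only and 3 in *flrt2*-KO libraries only, which fixed their direction. With the limit met in 2 libraries of each group, 5 of 20 genes fell and 0 rose. *znf1089* (ENSDARG00000088847, chromosome 4, 64147241 to 64159906) had 0.0916, 0.175, 0.285 and 0.279 FPKM in *flrt2*-KO, against 2.44, 3.77, 3.41 and 2.44 FPKM in WT libraries (log2 fold change -2.30, SE 0.19, adjusted p = 5.91e-05). *znf1048* (ENSDARG00000091994, chromosome 4, 63769987 to 63786630) had 0.126, 0.315, 0.157 and 0.334 FPKM in *flrt2*-KO, against 2.08, 3.402, 3.22 and 3.15 FPKM in WT (log2 fold change -2.23, SE 0.20, adjusted p = 7.09e-05). Both lay less than 1 Mb beyond the last of the 6 neighbours that rose. Among called genes, the direction thus differed between adjacent groups of the same family, while *znf1089* and *znf1048* passed the filter through WT libraries only.

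Towards the distal end of the arm, from 72 Mb on, most genes did not pass the test. Of 40 zinc finger genes tested there, 1 was called, *znf989*, with 0.484, 0.463, 0.2004 and 0.0983 FPKM in *flrt2*-KO, against 1.35, 0.768, 1.91 and 0.8295 FPKM in WT libraries (log2 fold change -1.06). This gene passed the filter through WT libraries only. Its call was lost with the title suffix as a block (log2 fold change -0.75, adjusted p = 0.104) and without WT library 12_16, WT library 1_8, *flrt2*-KO library 1_8_ysy or *flrt2*-KO library 2_17 (adjusted p = 0.0537, 0.0572, 0.0547 and 0.0533). *nup50*, which codes for a nuclear pore protein, had 22.5 to 29.1 FPKM in *flrt2*-KO and 23.4 to 25.2 FPKM in WT libraries. *RAB21*, a small GTPase of endosomes, had 14.8 to 24.9 FPKM in *flrt2*-KO and 20.5 to 22.4 FPKM in WT. *terfa*, a telomere-binding protein, had 22.8 to 38.03 FPKM in *flrt2*-KO and 24.5 to 31.1 FPKM in WT. These 3 genes did not pass the test, and the groups overlapped.

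The highest levels of the whole arm were at its end. *CCT2* (ENSDARG00000104674, chromosome 4, 78022547 to 78026285) and *cct2* (ENSDARG00000087206, chromosome 4, 78008298 to 78009682) are both described as the beta subunit of the T-complex chaperonin, which folds actin and tubulin. *CCT2* had 321, 334, 293 and 468 FPKM in *flrt2*-KO libraries (mean 354 ± 77.8, SD, n = 4), against 303, 328, 325 and 309 FPKM in WT libraries (mean 316 ± 12.4). *cct2* averaged 127 ± 39.7 FPKM in *flrt2*-KO and 137 ± 10.02 FPKM in WT, and *zgc:85975*, without a description, 104 ± 35.9 FPKM in *flrt2*-KO and 107 ± 14.5 FPKM in WT (SD, n = 4 each). The groups overlapped in all 3, and library 2_17 was the highest *flrt2*-KO library in each. The 2 chaperonin rows may share reads, and both lie within the span of the NLR row *si:dkey-238k10.2*.

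Of the 5 genes called from 72 Mb on, 3 have roles outside the 2 large families, and they were named after their values were seen. *psmb10*, described as a proteasome beta subunit, had 1.52, 0.906, 1.16 and 1.13 FPKM in *flrt2*-KO, against 3.298, 10.6, 6.31 and 5.16 FPKM in WT libraries (log2 fold change -1.93, SE 0.29, adjusted p = 0.00144). *ms4a17a.9*, a member of the CD20-like family of membrane proteins, had 1.67, 1.26, 4.39 and 0.917 FPKM in *flrt2*-KO, against 0.125, 0.519, 0.458 and 0.313 FPKM in WT (log2 fold change 1.43, SE 0.35, adjusted p = 0.0205), and did not pass without WT library 12_16 or WT library 1_8_ysy (adjusted p = 0.0573 and 0.0504). The groups were apart in both, with WT library 1_19 highest for *psmb10* and *flrt2*-KO library 1_8_ysy highest for *ms4a17a.9*. Its family neighbours *ms4a17a.5*, *ms4a17a.7*, *ms4a17a.8* and *ms4a17a.11* had log2 fold changes of 0.44, 0.05, -0.50 and -0.20, none past the test. A ribosomal RNA row (ENSDARG00000112072) had 13.1, 8.37, 10.999 and 10.8 FPKM in *flrt2*-KO, against 1.13, 2.33, 4.71 and 2.82 FPKM in WT (log2 fold change 1.90).

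Zinc finger genes made up nearly as many of the tested genes of the arm as all other kinds together. Of the 269 tested, 38 rose and 43 fell (30.1% called), and 144 did not pass an adjusted p under 0.05, where 6.94% of all genes and 27.7% of all long arm genes were called. Of these 269 genes, 55 reached 0.5 FPKM in 1 group only (29 in *flrt2*-KO, 26 in WT), and they held 48 of the 81 calls. Of the 177 that met this limit in 2 libraries of each group, 16 were called in the fit reported. In a separate fit of genes that met it so, 8.47% of the 177 were called. With 1 FPKM added before the log, 14.9% of the 269 were called. On the rest of chromosome 4, 1 of 14 zinc finger genes was called, and on other chromosomes 12 rose and 19 fell of 980 (3.16%). The median level of the long arm zinc finger genes was 1.097 FPKM, against 4.73 FPKM for those of other chromosomes. Their summed level was 383 to 457 FPKM in *flrt2*-KO and 379 to 532 FPKM in WT libraries, with overlapping groups.

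The long arm zinc finger genes with the highest levels did not pass the test. *BX530097.1* (ENSDARG00000099173, chromosome 4, 29773917 to 29786758) had 26.4, 24.9996, 22.9 and 14.02 FPKM in *flrt2*-KO and 10.6, 18.8, 20.9 and 20.5 FPKM in WT libraries (log2 fold change 0.32, SE 0.25, adjusted p = 0.435). *trim24*, which codes for a transcription cofactor and ubiquitin ligase with zinc-binding domains, had 18.1, 15.7, 16.2 and 16.4 FPKM in *flrt2*-KO and 17.1, 15.96, 16.3 and 14.4 FPKM in WT (log2 fold change 0.06, SE 0.10, adjusted p = 0.754). *si:cabz01071912.2* had 6.57 to 9.24 FPKM in *flrt2*-KO and 7.396 to 8.84 FPKM in WT. In these 3 the groups overlapped, and *BX530097.1* had 1 library in each group well below the others.

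Few NLR genes reached the 0.5 FPKM limit in these eyes. Of 226 NLR rows on the arm, 17 (7.52%) were tested, while 67.8% of the zinc finger rows were. Of the 17, 4 were called lower and 0 higher (23.5%, against 27.7% of all long arm genes), 8 were lower at an adjusted p under 0.05 without the fold limit, and 9 did not pass. The limit of 0.5 FPKM was reached in WT libraries only by 7 of the 17 genes, which thus had to be lower in *flrt2*-KO. All 4 calls were among these 7, so the filter fixed their direction. Of the 10 that met the limit in 2 libraries of each group, 0 were called.

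*si:ch211-215p11.1* (ENSDARG00000104850, chromosome 4, 39992253 to 40008875) had 0.03595, 0.206, 0.112 and 0.146 FPKM in *flrt2*-KO, against 1.18, 1.06, 1.19 and 1.43 FPKM in WT libraries (log2 fold change -1.46, SE 0.17, adjusted p = 3.89e-04). *si:ch211-134c10.1* (ENSDARG00000101598, chromosome 4, 46890749 to 46915962) had 0.0373, 0.161, 0.0387 and 0.133 FPKM in *flrt2*-KO, against 0.792, 0.732, 0.791 and 0.758 FPKM in WT (log2 fold change -1.104, SE 0.17, adjusted p = 0.00161). Both lie between 33 and 58 Mb. *CABZ01015525.1* (ENSDARG00000091235, chromosome 4, 43999348 to 44010453), described as NLRC5, had 0.05396, 0.232, 0.1397 and 0.219 FPKM in *flrt2*-KO, against 0.925, 0.781, 0.915 and 1.46 FPKM in WT (log2 fold change -1.19, SE 0.20, adjusted p = 0.00266). Its row starts at the same base as that of *si:dkey-4j21.2* (ENSDARG00000112719), which fell by 1.18 on the log2 scale, so that their reads cannot be fully told apart. *si:dkey-165o8.2* (ENSDARG00000104956, chromosome 4, 75690971 to 75708006), in the distal stretch with few calls, had 0.1298, 0.0532, 0.0576 and 0.132 FPKM in *flrt2*-KO, against 0.519, 1.14, 0.821 and 1.17 FPKM in WT (log2 fold change -1.23, SE 0.20, adjusted p = 0.00274).

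The NLR gene with the highest level, *si:dkey-16p6.1* (ENSDARG00000088245, chromosome 4, 32772213 to 32783867), had 1.499, 1.82, 1.21 and 1.01 FPKM in *flrt2*-KO, against 2.53, 3.16, 2.59 and 2.22 FPKM in WT libraries. The difference was less than 2-fold (log2 fold change -0.74, SE 0.18, adjusted p = 0.0205). It did not pass with the title suffix as a block (adjusted p = 0.0842), nor without WT library 1_19, WT library 1_8 or *flrt2*-KO library 1_8_ysy (adjusted p = 0.0515, 0.0518 and 0.0541). *si:dkey-31n13.4* (ENSDARG00000101312, chromosome 4, 46981658 to 47068195) and *si:dkey-238k10.2* (ENSDARG00000104380, chromosome 4, 77761901 to 78048911) did not pass the test, with log2 fold changes of -0.31 and 0.08 and overlapping groups. None of the 17 lay in the stretches where most genes rose. With 1 FPKM in place of 0.5 added before the log, 0 of the 17 NLR genes were called, and the adjusted p of the 4 was 3.76e-04 to 0.00344.

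**Figure D5:**
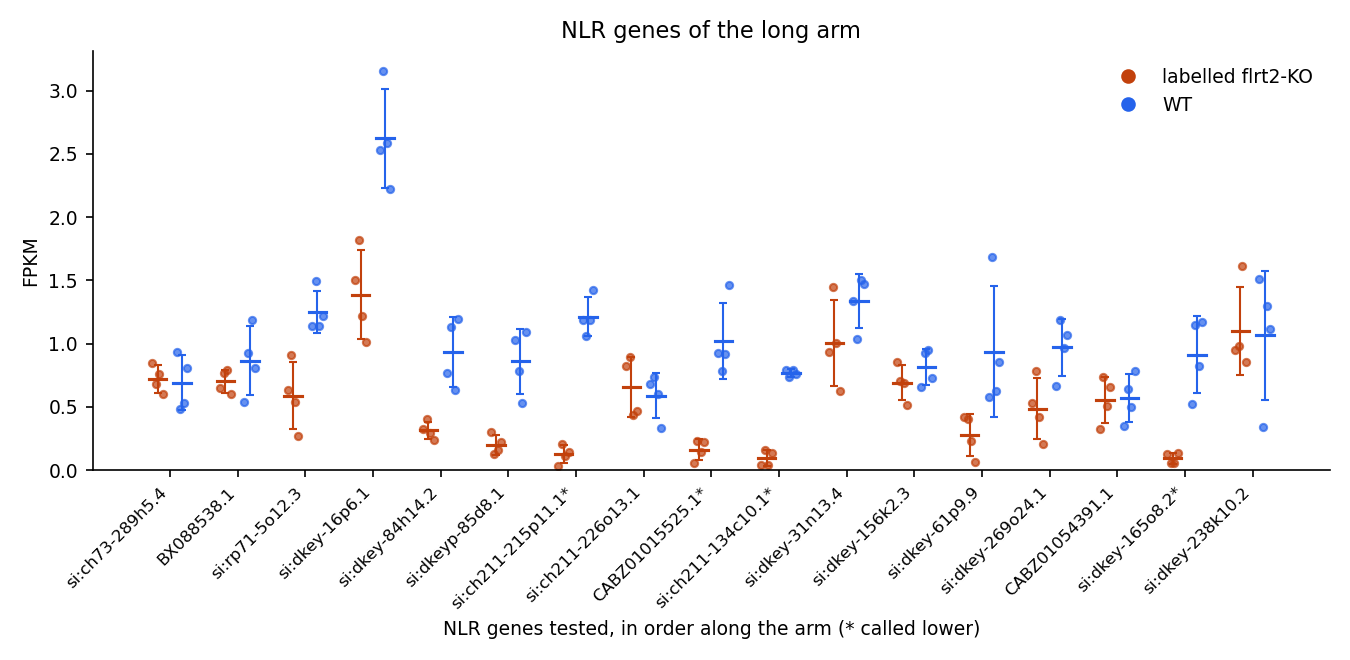
FPKM (vertical axis) of the 17 NLR genes tested, in their order along the arm (horizontal axis), in the 4 *flrt2*-KO and the 4 WT libraries, with the mean and SD of each group as bars and an asterisk for genes called lower. The called genes have *flrt2*-KO points at or below 0.232 FPKM and WT points at or above 0.519 FPKM.

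Among the other kinds, 26 of 205 genes without a description rose and 34 fell (29.3% called), where 6.94% of all genes tested and 9.33% of such genes on other chromosomes were called. Of the 205, 34 reached 0.5 FPKM in 1 group only and held 29 of the 60 calls, and 20 of the 142 that reached it in 2 libraries of each group were called. Of the 559 genes, 406 carried an Ensembl identifier, of which 25.4% were called, and 153 were transcripts assembled without annotation, of which 34% were called. Among 47 genes with another description, 2 rose and 3 fell (10.6%), and 40 of them did not pass an adjusted p under 0.05. Mobile element-like genes had 2 higher and 2 lower of 15 tested (26.7%), against 11.4% on other chromosomes, and 3 of the 4 reached the limit in 1 group only. *BX649431.4* (start 52188449), described as a Tc1 transposase, had no read in any *flrt2*-KO library, against 0.734, 0.759, 0.905 and 0.667 FPKM in WT libraries, at least 13.8-fold lower with the *flrt2*-KO group set at the floor of 3 reads. *si:dkey-29p23.1*, described as a nuclease derived from a Harbinger transposase, had 0.0464, 0.178, 0.165 and 0.121 FPKM in *flrt2*-KO and 0.909, 1.11, 0.862 and 1.15 FPKM in WT (log2 fold change -1.27, SE 0.17, adjusted p = 8.34e-04). Of 493 rows of small RNA genes, most of them snRNA, 455 had no read and 3 were tested.

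The libraries of a group differed among themselves in a shared way. WT library 12_16 was the lowest of the WT group in 289 of the 559 genes (51.7%), in 43 of the 86 that fell and in 36 of the 69 that rose, while over all genes tested it was lowest in 33.4%. In the *flrt2*-KO group, library 1_8_ysy was lowest in 205 genes (36.7%). Leaving out each library in turn gave 62 to 70 genes higher and 74 to 95 lower. In the stretches it gave 20 to 23 higher between 68 and 72 Mb, 13 to 17 higher between 60 and 63 Mb, and 50 to 69 lower between 33 and 58 Mb.

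Gene rows that overlap another row made up 154 of the 559 genes and 36 of the 155 called, and near-identical copies among the zinc finger and NLR genes may share reads, since the treatment of reads with several matches is not given in the sources used here. How this moves the values was not tested beyond leaving the overlapping rows out, which left 55 higher and 64 lower. The rule itself had 2 limits. On position, *celsr1a* (start 28190013), an atypical cadherin of planar cell polarity, lay just inside with means of 5.19 ± 0.699 FPKM in *flrt2*-KO and 5.04 ± 0.815 FPKM in WT, and *cerk* (start 27898833), ceramide kinase, just outside with 4.796 ± 0.411 FPKM in *flrt2*-KO and 3.32 ± 0.736 FPKM in WT (SD, n = 4 each). On level, the 4th highest library was at 0.5003 FPKM in an unannotated row at 61449329, just inside, and at 0.4978 FPKM in *CR788316.3*, a zinc finger pseudogene just outside.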

How the data were processed

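RNA from pooled embryonic eyes was sequenced in 4 libraries labelled *flrt2*-KO and 4 WT libraries. Per the methods, the authors used HISAT2 2.0.5 with GRCz11 for alignment and featureCounts 1.5.0-p3 for counts per gene. The authors deposited 1 table of FPKM values, used here as deposited. Each value was multiplied by gene length and divided by the smallest such product above 0 in its library, taken as 1 read. By this, 100% of values were whole reads within a tolerance of 1e-06, with 13423932 to 14835885 reads per library. The library size behind the FPKM was 0.9295 to 1.072 times these reads, and the median-ratio factors of the deposited values were 1.011 in every library. Whether counting used strand, and how reads with several matches were treated, is not given in the sources used here.

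The 21012 genes reaching 0.5 FPKM in 4 or more of 8 libraries were fitted on log2(FPKM + 0.5) with limma 3.58.1 in R 4.3.3 (trend and robust prior, no covariate), with Benjamini-Hochberg adjustment over all of them. Calls needed both an adjusted p below 0.05 and a log2 fold change above 1 or below -1. Fold changes on this scale understate those of low genes. No source states that libraries came from separate crosses, so p measures the spread between these libraries. Floors of 3 reads cover counting error only. For *flrt2*, an exact permutation test (two-sided) was run as well.

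Title suffixes were shared by 3 pairs of libraries, whose deviations from the group means correlated at r = 0.141, 0.122 and 0.106 across genes, against -0.223 to 0.112 for the 13 other pairs. By this they were treated as pairs in an alternative with the suffix as a block. What the suffixes stand for is not given.

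Families followed names, descriptions and, for small RNAs, biotypes. The members, lists and rules were chosen with earlier results of these data known. Genes named were *flrt2*, the 8 largest called changes each way without overlap and with a mean of at least 1 FPKM in the higher group, the 3 highest zinc finger, NLR and other genes, up to 4 zinc finger and NLR genes each way with the smallest adjusted p, the longest runs, and the genes at the limits. Others were named after their values were seen. The table holds no row of the alternate contigs of chromosome 4 that matched a member by protein description and position. The match needed a named protein in both descriptions and starts within 0.2 Mb of each other. Members without a description and many zinc finger genes could not match, and contig positions are not positions on the chromosome. The match thus cannot show that such copies are absent. Alternatives were other pseudocounts, filters and scalings, annotated rows only, a start at 30 Mb, voom on recovered reads, no prior, the block and each library left out. The fit was checked on simulated data. Tables and figures used Python 3.11.15, numpy 2.4.6, pandas 2.3.3 and matplotlib 3.10.9.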

Additional observations from a re-analysis of the deposited data

Results flagged for a closer look

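In 134 groups of 4 libraries screened for a single library far from the other 3, 8 were found. Chance gives about 1 in 20 groups, so this number is near that share, and the 8 are listed as description only. The unannotated row at 30863895 was at 0.3095 FPKM in WT library 1_19, against at most 0.0339 FPKM in the other WT libraries. *CU207245.1* was at 0.10004 FPKM in WT library 1_8_ysy, where the others had at least 0.2001 FPKM. *si:dkey-207l24.2* was at 4.33 FPKM in WT library 1_8_ysy and at no more than 3.51 FPKM in the others. *si:dkey-191j3.1* was at 0.347 FPKM in *flrt2*-KO library 2_17 and at no more than 0.177 FPKM in the others. The NLR gene *si:dkey-238k10.2* was at 1.61 FPKM in *flrt2*-KO library 1_8_ysy, against at most 0.978 FPKM, and the zinc finger gene *si:dkey-246j6.3* was at 1.54 FPKM in the same library, against at most 0.903 FPKM. *znf1081* was at 3.49 FPKM in *flrt2*-KO library 12_16 and at no more than 2.88 FPKM in the others. *znf1109* was at 4.83 FPKM in *flrt2*-KO library 2_17 and at no more than 1.77 FPKM in the others. In each called gene among them, this library stayed on its own group's side of the other group. This was fixed in advance, since these genes were chosen without overlap or passed the filter through 1 group only.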

How the results depend on the processing

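No long arm gene called in the fit reported reversed its direction under any alternative. The filter fixed the direction of genes that reached 0.5 FPKM in 1 group only, so these could hardly reverse. They held 48 of the 81 zinc finger calls, 29 of the 60 calls without a description and all 4 NLR calls. For 64 named genes, 20 of them named after their values were seen, the alternatives gave 1219 values. Of these values, 1176 kept their side of the threshold, which includes genes called in neither fit. The other 43 values, in 16 genes, fell short of it, 15 of the 43 with a pseudocount of 1. Genes that an alternative filter left untested gave no value and were not counted as losses. With the filter met in 2 libraries of each group, most named genes that were called were no longer tested, including those with the largest rise and the largest fall. The fit reported gave 69 higher and 86 lower (27.7% called). Zinc finger genes stood at 30.1%, NLR genes at 23.5% and the rest of chromosome 4 at 3.67%. A pseudocount of 1 gave 43 higher and 41 lower (15% called). Zinc finger genes were then at 14.9%, NLR genes at 0% and the rest of chromosome 4 at 1.73%. A pseudocount of 0.1 gave more calls, 77 higher and 120 lower (35.2% called), with 35.3% of NLR genes. A filter at 1 FPKM gave 43 higher and 56 lower of 374, since fewer genes were tested, and annotated rows alone gave 44 higher. Without a filter, 13.7% of 1234 long arm rows, 2.82% of NLR rows and 2.24% of the rest of chromosome 4 were called. Without the fold limit, 143 were lower and 41.1% passed, with 46.5% of zinc finger genes, 47.1% of NLR genes and 12.3% of the rest of chromosome 4. Calls by voom on recovered reads were 80 higher and 122 lower (36.1%), with 47.1% of NLR genes. A filter met in 2 libraries of each group, added after seeing the data, gave 11 higher and 27 lower (9.84%), with zinc finger genes at 8.47%, NLR genes at 0% and the rest of chromosome 4 at 2.25%. Overlapping rows left out, also added, gave 55 higher and 64 lower. With the title suffix as a replicate block, 67 were higher and 77 lower, of which 61 and 69 were also called without it, and among the 43 named genes that were called, *si:dkey-246j6.1*, *si:dkey-246j6.3* and *znf989* lost the call. Leaving out each library gave 62 to 70 higher, 74 to 95 lower, 24.9 to 29% called, 25.7 to 31.6% of zinc finger genes, 23.5 to 29.4% of NLR genes and 3.02 to 4.54% of the rest of chromosome 4. *flrt2* differed by 0.853 FPKM with equal column sums and 0.854 FPKM per recovered read, and by 0.762 to 1.16 FPKM without 1 library, where an exact p of 0.0857 was reached at 4 of the 8 libraries left out. The cause of these shifts was not tested except where fewer genes entered. At 20 to 38559 reads per gene over 8 libraries, values under 0.1 FPKM rest on a few reads.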

Other observations

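Outside the comparisons above, 15 rows on alternate contigs of chromosome 4 with a start of 28 Mb or beyond, of which 11 were tested, had 0 higher and 3 lower. Another 73 rows on such contigs with a smaller start, 62 of them tested, had 19 higher and 2 lower. Contig positions are not positions on the chromosome, and these rows were not counted with the long arm genes.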
